A study of Drosophila melanogaster with 12 samples.

Results

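The regions described here are narrow RNA polymerase II (Pol II) domains that lie over the start of a transcript and that overlap no peak of Argonaute2 (AGO2), the Argonaute protein that carries small interfering RNAs in flies. Of 5905 Pol II domains called in mock-treated cells, 2873 (48.7%) met this description. They were selected on measured values: a width under 2000 bp in the Pol II list, no shared base with any of the 4201 AGO2 peaks of mock-treated cells, and at least 1 annotated transcript start inside the domain. Their narrowness, their lack of AGO2 and their place at promoters are therefore how they were found, not results, and "AGO2-free" below means only that no listed peak overlapped the domain. The comparison set was the 1864 narrow promoter domains that did overlap an AGO2 peak, so the AGO2-free domains made up 60.7% of the 4737 narrow promoter domains (Wilson 95% interval 59.3 to 62.0%). The remaining Pol II domains were 615 narrow domains away from starts without AGO2, 225 such domains with AGO2, and 328 broad domains.

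The lists came from chromatin immunoprecipitation and sequencing (ChIP-seq) in Kc167, a cultured fly line derived from embryos and labelled female. The 12 libraries comprised 2 AGO2 ChIPs from LaminB knockdown cells (dsRNA against the nuclear lamina protein LaminB) with 2 inputs, and, from mock-treated cells (transfection without dsRNA), 2 AGO2 ChIPs, 2 Pol II ChIPs and 4 inputs. Pol II was taken with antibody 8WG16 and AGO2 with an antibody from the Mueller laboratory. The authors pooled the libraries of a group before the final call, so that no value here has a replicate error, read depth is unknown, and all tests compare domains of 1 list and not replicate cultures. Of 8 genes known from hemocyte-like cells, 7 had a Pol II domain at a start, and 4 of these (Ppn, Col4a1, vkg and Hml) had an AGO2-free narrow one. Of all annotated genes, 37.1% had a Pol II domain at a start, and 54.5% of those had an AGO2-free narrow one. Of 10 annotated markers of neurons, muscle, fat body and germ line, 1 (elav, a neuronal RNA-binding protein) had a Pol II domain at a start, and it carried AGO2.

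Pol II gathers at promoters before and during early elongation, and in flies many polymerases pause shortly after the start. Fly promoters fall into broad families by their sequence. Housekeeping promoters tend to hold the DNA replication-related element (DRE), Motif 1 and certain E-boxes and often face a neighbour head to head, whereas regulated and paused promoters more often hold a TATA box, an initiator, a downstream promoter element (DPE) or GAGA repeats, the target of GAGA factor and similar proteins. The TCT initiator marks ribosomal protein genes and other translation genes. AGO2 works in the cytoplasm in RNA interference, and in flies it has also been found on chromatin.

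To show what these promoters look like, 1 AGO2-free promoter is printed for 7 of the 8 motifs searched. Only domains on 2L, 3L, 3R or X over the start of 1 protein-coding gene, and not already picked, were eligible. Up to 2 domains were picked per motif, the widest that hold it in the printed stretch, and the wider is printed. Sam-S (1548 bp), picked second for the TATA box, also holds a TCT match and was left out for that motif. Each was read from the RefSeq genome (Release 6) on the gene's strand, from 60 bases before the annotated start to the first 30 transcribed bases. Capitals mark only the motif listed for each promoter, and other matches stay in lower case, such as TATAAA and TCAGT in rdog. The motifs are, in this order, the DRE (TATCGATA), Motif 1 (GGTCACACT), the GAGA repeat (GAGAG, here as CTCTC, its reverse complement), the TATA box (TATAAA), the initiator (TCAGT), the DPE (GGACG) and the TCT initiator (CTTTTTC).
P5CDh1: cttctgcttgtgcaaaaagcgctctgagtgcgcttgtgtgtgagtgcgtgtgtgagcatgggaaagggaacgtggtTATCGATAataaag
del: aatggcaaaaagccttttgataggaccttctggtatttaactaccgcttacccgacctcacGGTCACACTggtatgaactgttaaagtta
rdog: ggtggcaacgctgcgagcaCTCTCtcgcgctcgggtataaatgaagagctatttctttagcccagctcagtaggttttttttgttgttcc
Sirup: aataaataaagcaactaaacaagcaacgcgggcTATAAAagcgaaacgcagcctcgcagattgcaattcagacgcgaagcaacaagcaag
Amun: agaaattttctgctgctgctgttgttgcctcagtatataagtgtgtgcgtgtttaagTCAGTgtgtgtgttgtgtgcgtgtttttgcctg
PpV: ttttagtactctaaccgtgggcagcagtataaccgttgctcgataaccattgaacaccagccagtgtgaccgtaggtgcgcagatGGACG
CG18549: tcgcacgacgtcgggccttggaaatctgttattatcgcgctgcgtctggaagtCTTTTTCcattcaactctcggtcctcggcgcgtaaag

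P5CDh1 encodes a dehydrogenase of proline breakdown, and its DRE began 16 bases after the start at chr3L:21840098-21840187 (reverse strand). In del (deadlock, a factor of piRNA clusters) Motif 1 began 1 base after the start at chr2L:21148388-21148477 (reverse strand). The GAGA match of rdog began 41 bases before the start at chr3R:29158062-29158151 (forward strand), and the TATA box of Sirup, an assembly factor of succinate dehydrogenase, began 27 bases before the start at chr2L:7998886-7998975 (forward strand). The initiator of Amun began 3 bases before the start at chrX:11714288-11714377 (reverse strand). PpV, a serine/threonine phosphatase, had its DPE from 25 bases after the start at chrX:6372886-6372975 (reverse strand). The TCT match of CG18549 began 7 bases before the start at chr3R:12449236-12449325 (forward strand). These domains were 1712, 1820, 1640, 1602, 1648, 1369 and 1188 bp wide in the order printed.

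The AGO2-free domains were narrower than the AGO2-bearing ones within the same limit. Their median width was 577 bp (quartiles 388 and 952, range 147 to 1983), against 826.5 bp (quartiles 556.8 and 1223, range 161 to 1998) for narrow promoter domains with AGO2. Because a wider domain has more room to meet a peak, this difference bears on the rule and is given without a test. AGO2-free domains formed 82.8% of the 925 narrow promoter domains under 400 bp (Wilson 95% interval 80.2 to 85.1%), 61.8% of 1539 from 400 to under 700 bp, 55.0% of 1372 from 700 to under 1200 bp and 44.5% of 901 at 1200 bp and over (41.3 to 47.8%). The share fell with each step in width. Though they were 48.7% of all Pol II domains, they covered 40.3% of the sequence under them.

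**Figure D1:**
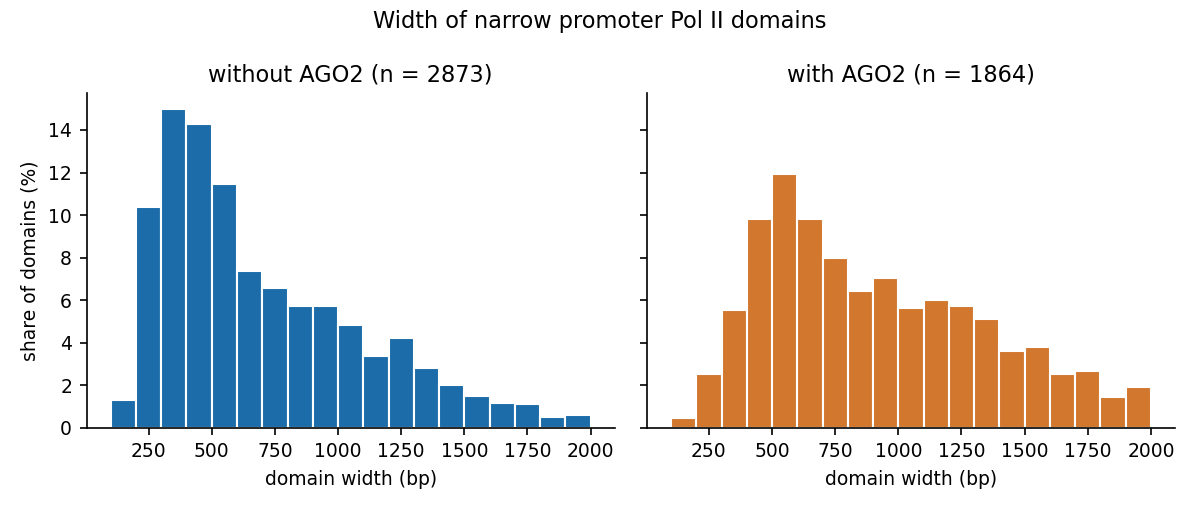
Share of domains (%) in 100 bp bins of domain width (bp), for narrow promoter Pol II domains without AGO2 on the left (2873) and with AGO2 on the right (1864). The left distribution peaks in the bin from 300 bp, with 430 domains, and its median is 577 bp, against 826.5 bp on the right.

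The widest AGO2-free domain, 1983 bp at chrX:13611057-13613039, covered the starts of Ndc80, a kinetochore protein, and BthD, a selenoprotein. Next came Sumo, the small ubiquitin-like modifier (1971 bp, chr2L:6966491-6968461), Gp210, a nuclear pore glycoprotein that shared its domain with CG7791 (1970 bp, chr2R:5759911-5761880), ATP6AP2, an accessory protein of the vacuolar proton pump (1958 bp, chr3R:9259972-9261929), and stck, an adaptor of integrin adhesion sites (1956 bp, chr3R:8356770-8358725). The narrowest were single-gene domains at Tusp (147 bp, chr3R:27608194-27608340), ana, a secreted glycoprotein of glia (149 bp, chr2R:9069035-9069183), CG18473 (149 bp, chr3R:9363251-9363399), Nplp1, a neuropeptide precursor (155 bp, chr2R:25032322-25032476), and aru (156 bp, chr2L:868225-868380). All 5 began between 26 and 62 bp before the start and reached 86 to 129 bp into the gene. Just past the width limit, the narrowest broad domain without AGO2 lay over dap, a cyclin-dependent kinase inhibitor, at 2001 bp. At the limit set by starts, the start of MED4 was the last base of its domain, whereas a domain of 246 bp that ended 1 bp from the start of MFS18 was left out.

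Where starts lay on 1 strand only, most AGO2-free domains reached further into the gene than upstream of it. Among the 2116 with starts on 1 strand only, the domain reached a median of 114 bp upstream (quartiles 69 and 190) and 340 bp downstream (229 and 472). The 1263 domains with AGO2 and starts on 1 strand reached 176 bp upstream (93 and 299) and 425 bp downstream (324 and 561). The downstream side was the longer one in 87.5% of AGO2-free domains (1852 of 2116, Wilson 95% interval 86.1 to 88.9%) and in 81.4% of those with AGO2 (1028 of 1263, 79.2 to 83.4%), an odds ratio of 1.60 (95% interval 1.32 to 1.95, two-sided Fisher's exact test, adjusted exact p = 2.34e-05 over the 13 properties compared). Both sides are measured from the domain edges, which the rule also used for width and overlap. Like the difference in width, this one therefore bears on the rule and is only a description. Width moved with this result. Under 700 bp the shares were 91.0% without AGO2 and 92.1% with AGO2 (odds ratio 0.88, adjusted exact p = 0.88). At 700 bp and over they were 76.2% without AGO2 and 67.4% with AGO2.

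**Figure D2:**
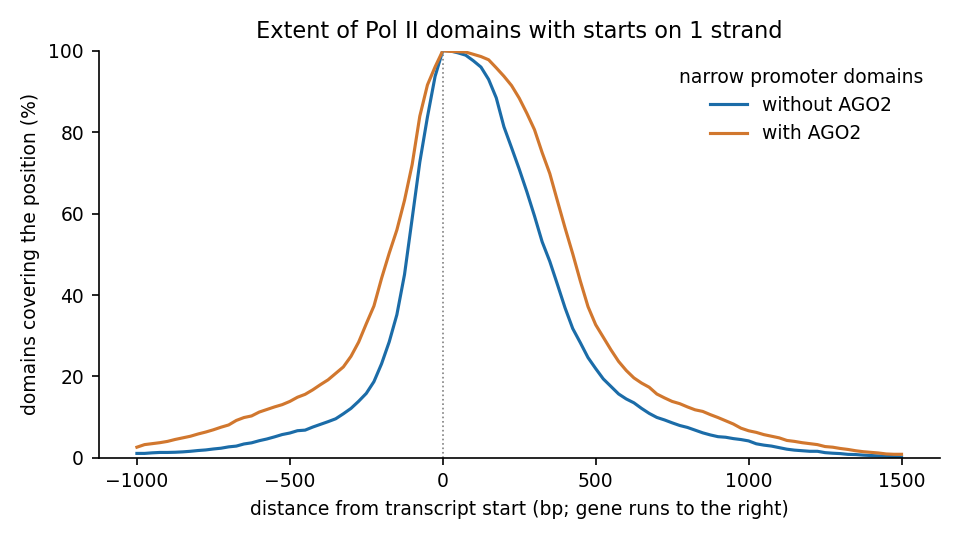
Share of domains (%) that cover each position, against distance from the reference transcript start (bp, gene to the right), for narrow promoter domains with starts on 1 strand. At 225 bp upstream 18.7% of the domains without AGO2 (blue) and 37.3% of those with AGO2 (orange) covered the position, and at 375 bp downstream 42.6% without AGO2 and 63.1% with AGO2.

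The AGO2-free domains covered starts of 3695 genes, which is 20.2% of the 18277 annotated genes. Narrow promoter domains with AGO2 covered starts of 2483 genes (13.6%). Protein-coding genes made up 3528 of the 3695, and the rest comprised 121 genes typed as noncoding RNA, 21 small nucleolar RNAs, 15 small nuclear RNAs, 7 pseudogenes and 3 tRNAs. A single gene was covered by 2032 AGO2-free domains, a pair by 758, and 3 or more by the others. Both domains with 10 genes lay within the mod(mdg4) locus, at chr3R:21359505-21360822 and chr3R:21364872-21366275, over the starts of short precursors that are joined in trans to the mod(mdg4) messenger RNA, so that these 10 entries each are alternative ends of 1 gene. The 3 domains with 5 genes lay at PIG-M and NC2alpha (a subunit of an inhibitor of TATA-binding protein), at ewg (erect wing, a transcription factor) with mir-980, and at Mlc-c (a myosin light chain) with Pop1 and mir-3645. At ewg and at Mlc-c the count includes annotation entries named only by a transcript identifier, so fewer than 5 named genes start there.

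AGO2-free did not always mean a gene without AGO2. Of the 3695 genes, 472 (12.8%) had a mock AGO2 peak somewhere in the gene body. The share of all annotated genes with such a peak is not given here, so 12.8% cannot be called high or low. A start in a narrow domain with AGO2 was also found for 167 (4.52%) and one in a broad domain for 16 (0.433%). Among all annotated genes these shares were 13.6% and 4.40%. A gene with 1 start position, as 2372 of the 3695 were, could not have starts of both kinds. The ecdysone receptor gene EcR, Eip75B and Hr4, nuclear receptors of the ecdysone response, each had an AGO2-free start, while 11 of the 12 genes of that list had a start in a narrow domain with AGO2, so that some of these genes had starts of both kinds.

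AGO2-free promoters held both the housekeeping and the regulated motifs, and none of the 8 motif shares differed past the test from those of promoters with AGO2. The DRE was found in 10.6% of AGO2-free promoters (305 of 2873) and 10.6% of those with AGO2 (198 of 1864), within 100 bp upstream to 50 bp downstream of the reference start on either strand, where the reference start is the covered one nearest the domain centre. The odds ratio was 1.00 (95% interval 0.82 to 1.21, adjusted exact p = 1). Motif 1 was at 8.56% without AGO2 and 10.5% with AGO2 (odds ratio 0.80, 0.65 to 0.98, adjusted exact p = 0.091), and the CAGCTG E-box at 16.7% without AGO2 and 14.5% with AGO2 (1.18, 1.00 to 1.39, adjusted exact p = 0.091). GAGA was at 24.9% without AGO2 and 26.6% with AGO2 (0.91, 0.80 to 1.05, adjusted exact p = 0.28). Those 4 shares lay above the shares at the 15230 annotated starts outside any Pol II domain, which were 1.92% for the DRE, 0.729% for Motif 1, 7.35% for the E-box and 18.4% for GAGA. Over all 23697 start positions they were 5.27%, 3.61%, 10.5% and 19.9%.

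The motifs had preferred places in both classes. In bins of 20 bp, the DRE was most frequent in the bin that begins 40 bp upstream in AGO2-free promoters (2.99%, against 2.74% with AGO2) and GAGA in the bin that begins 80 bp upstream (7.97%, against 7.83% with AGO2). In promoters with AGO2 the most frequent DRE bin began 60 bp upstream (3.38%, against 2.54% without AGO2). Their most frequent GAGA bin began 100 bp upstream (8.10%, against 7.55% without AGO2). Farther out, in the bin that begins 180 bp upstream, GAGA was at 3.17% of AGO2-free promoters and 5.04% of those with AGO2. When the window was extended to 250 bp upstream, GAGA was at 35.4% of AGO2-free promoters and 40.3% of those with AGO2, and this difference passed the test (odds ratio 0.81, adjusted exact p = 0.0023). With an overlap of at least 50% GAGA also passed (0.82, adjusted exact p = 0.015), as it did with the stronger 50% of peaks (0.71, adjusted exact p = 6.70e-05, range over its alternatives to 0.93). Motif 1 passed in the longer window (9.78% without AGO2 and 12.02% with AGO2, 0.79, adjusted exact p = 0.041) and lay on the other side with the stronger 50% of peaks (1.17, adjusted exact p = 0.34).

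The motifs that need a fixed place were searched on the gene's strand. The TATA box, searched from 45 to 15 bp upstream, was found in 3.48% of AGO2-free promoters and 2.68% of those with AGO2 (odds ratio 1.31, 0.92 to 1.89, adjusted exact p = 0.21), against 9.03% of starts outside Pol II domains. The initiator TCAGT within 10 bp of the start was at 15.1% without AGO2 and 14.9% with AGO2 (1.01, 0.86 to 1.20, adjusted exact p = 0.98), and at 11.3% of starts outside. The DPE (GGACG, with A also allowed first, 20 to 40 bp downstream) was at 5.67% without AGO2 and 7.14% with AGO2 (0.78, 0.61 to 1.00, adjusted exact p = 0.091), and at 2.95% of starts outside. The TCT initiator (CTTTCTC, with either later C also allowed as T, within 10 bp of the start) was found at 27 AGO2-free promoters (0.940%) and 16 with AGO2 (0.858%, odds ratio 1.10, 0.57 to 2.18, adjusted exact p = 0.98). It was at 0.722% of starts outside. Of the 22 AGO2-free domains over starts of cytoplasmic ribosomal proteins, 1 held a match at its reference start. These shares therefore say little about TCT promoters. The DPE difference passed when an overlap of at least 50% was asked for (0.71, adjusted exact p = 0.015, range over its alternatives 0.0011 to 0.93). With the stronger 50% of AGO2 peaks the initiator passed on the other side (0.79, adjusted exact p = 0.033, range 0.0018 to 1). Each motif was searched on its own, so that matches of different motifs may share bases. None of the 8 was present at 1088 AGO2-free promoters (37.9%) and 709 with AGO2 (38.0%).

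**Figure D3:**
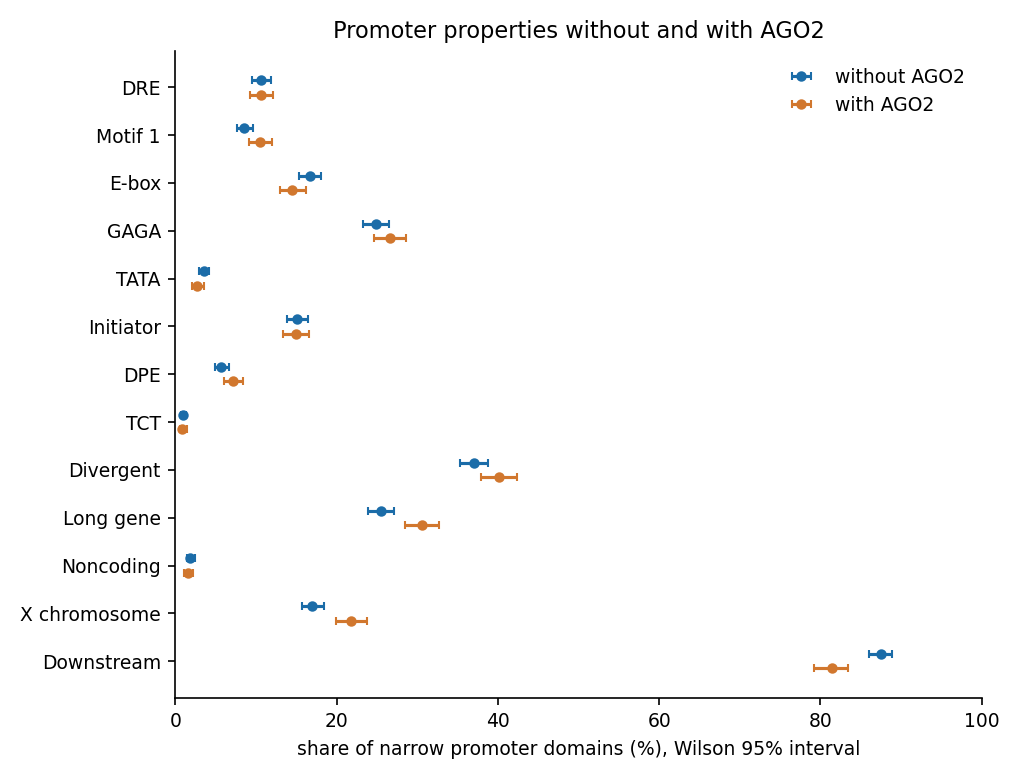
Share of narrow promoter domains (%) with each of 13 properties, without AGO2 (blue, 2873 domains) above those with AGO2 (orange, 1864 domains), with Wilson 95% intervals; the Downstream row counts domains with starts on 1 strand (2116 without and 1263 with AGO2). The differences for Long gene, X chromosome and Downstream passed the test. Without and with AGO2 the shares were 25.4% and 30.5% for Long gene and 17.0% and 21.8% for X chromosome. They were 87.5% and 81.4% for Downstream, which is measured from the domain edges that the rule also used.

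The AGO2-free promoters belonged to shorter genes. The reference gene was at least 10 kb long at 25.4% of them (731 of 2873, Wilson 95% interval 23.9 to 27.1%) and at 30.5% of promoters with AGO2 (569 of 1864, 28.5 to 32.7%), an odds ratio of 0.78 (95% interval 0.68 to 0.89, adjusted exact p = 0.00063). The median gene was 3685 bp long at AGO2-free domains (quartiles 1860 and 10115) and 4576 bp with AGO2 (2228 and 13402). Among domains of 700 bp and over, 15.9% of genes without AGO2 and 25.8% with AGO2 were long (odds ratio 0.54). Under 400 bp the shares stood the other way round, at 36.2% without AGO2 (277 of 766) and 34.6% with AGO2 (55 of 159), with overlapping Wilson intervals. The difference passed the test in each of the 11 alternatives run for it, with odds ratios from 0.54 to 0.78.

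The X chromosome held a smaller part of the AGO2-free domains. It carried 488 of them (17.0%, Wilson 95% interval 15.7 to 18.4%), against 406 of the domains with AGO2 (21.8%, 20.0 to 23.7%), an odds ratio of 0.73 (0.63 to 0.85, adjusted exact p = 0.00030) that passed in each of the 8 alternatives run for it (0.68 to 0.80). Seen by arm, AGO2-free domains were 68.5% of the narrow promoter domains of 2L (567 of 828), 64.4% on 3L (581 of 902), 60.8% on 2R (591 of 972), 55.9% on 3R (626 of 1119) and 54.6% on X (488 of 894). The Wilson intervals of 3R (53.0 to 58.8%) and X (51.3 to 57.8%) overlapped, so the X did not stand apart from all autosome arms. On chromosome 4, 20 of 22 narrow promoter domains were AGO2-free. The 3 longest rows of AGO2-free domains, with no other Pol II domain between them, were all on 2L. The longest counted 17 domains over 191 kb, from CG2991 to snRNA:LU (chr2L:2855985-3047395), and the others 16 and 14. Such rows count Pol II domains only, and mock AGO2 peaks could lie between the domains. In the longest row, the domain of Sf3b2 lay 100 bp from such a peak.

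Another gene started on the opposite strand within 1000 bp upstream at 37.0% of AGO2-free promoters (1064) and 40.1% of those with AGO2 (747), an odds ratio of 0.88 (0.78 to 0.99, adjusted exact p = 0.091). The direction of this difference depended on the settings. The odds ratio was 0.85 with protein-coding starts only, which passed (adjusted exact p = 0.025, range over its alternatives 0.0016 to 0.93), 1.15 with an overlap of at least 50% and 1.09 with the stronger 50% of peaks. The median distance between such starts was 302 bp (1064 AGO2-free pairs) and 322 bp with AGO2. Domains over noncoding genes only were 1.84% without AGO2 (53) and 1.56% with AGO2 (29, odds ratio 1.19, 0.74 to 1.95, adjusted exact p = 0.64).

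The AGO2-free domains varied strongly among themselves with width. In 4 groups, under 400 bp, from 400 bp, from 700 bp and at 1200 bp and over, the share with a head-to-head neighbour was 17.5%, 24.2%, 55.0% and 71.1%. Part of this follows from geometry, since a domain over starts on both strands (757 AGO2-free domains) spans the gap between them, and its median width was 1061 bp, against 473 bp with starts on 1 strand. The share of long genes was 36.2%, 28.4%, 16.8% and 14.2% over the same groups, and the share with an initiator 21.9%, 17.5%, 10.2% and 5.49%. GAGA was at 28.7%, 26.5%, 23.4% and 16.2%. The DRE went the other way, at 6.53%, 10.5%, 13.5% and 13.2%, as did Motif 1, at 5.09%, 9.25%, 9.54% and 11.7%. The narrowest and widest groups had Wilson intervals that did not overlap for each of these 6 properties.

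**Figure D4:**
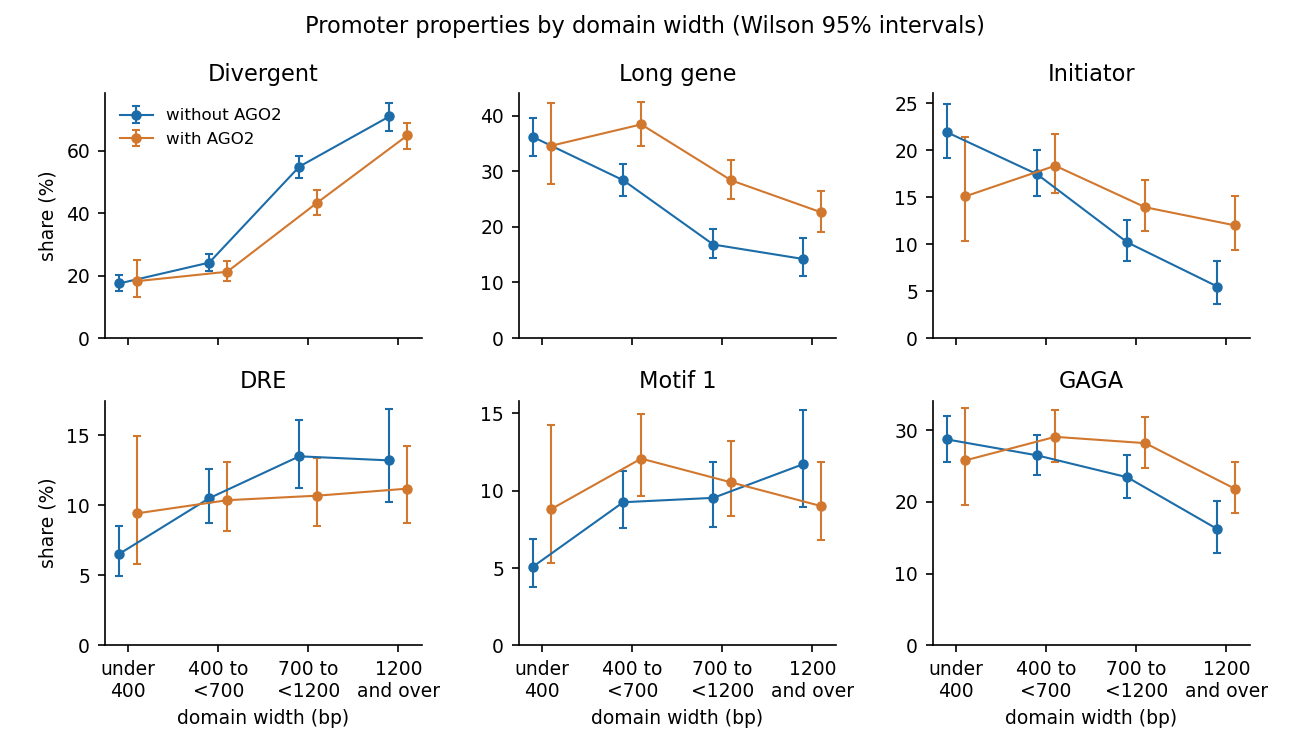
Share of narrow promoter domains (%) with each of 6 properties, by domain width group (bp), without AGO2 (blue, left of each pair) and with AGO2 (orange), with Wilson 95% intervals. Without AGO2 the initiator share runs from 21.9% under 400 bp to 5.49% at 1200 bp and over, and with AGO2 from 15.1% to 12%.

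Width also altered the comparison between classes. Among domains of 700 bp and over (1156 AGO2-free, 1117 with AGO2), the AGO2-free ones held fewer initiators (8.56% without and 13.1% with AGO2, odds ratio 0.62, adjusted exact p = 0.0018), fewer DPEs (3.81% without and 7.43% with AGO2, 0.49, adjusted exact p = 0.0011) and fewer GAGA repeats (20.9% without and 25.3% with AGO2, 0.78, adjusted exact p = 0.024), more E-boxes (16.6% without and 12.9% with AGO2, 1.35, adjusted exact p = 0.024) and more head-to-head pairs (60.6% without and 53.1% with AGO2, 1.36, adjusted exact p = 0.0016). Below 700 bp (1717 AGO2-free, 747 with AGO2) none of these 5 passed, and Motif 1 was the motif that did (7.40% without and 11.4% with AGO2, 0.62, adjusted exact p = 0.011). Whether the difference itself changed with width was not tested.

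GC content moved with the classes. The 151 bases around the reference start had a median GC content of 43.7% in AGO2-free promoters (quartiles 38.4 and 49.0) and 47.0% with AGO2 (40.9 and 53.0). To see which short sequences differed, all 2080 six-base sequences, counted on both strands, were compared in the same windows, a comparison chosen after the motif shares had been seen. Of these, 57 (2.74%) passed Fisher's exact test at an adjusted p of 0.05, with 35 rarer and 22 more frequent in AGO2-free promoters. The count was 219 in the window from 250 bp upstream, 17 among domains under 700 bp and 66 among those of 700 bp and over. Of the 35 rarer ones 32 held CG, as do 604 of the 2080, and of the 22 more frequent ones 20 had at most 2 G or C, as do 720 of the 2080. CGCCGC was in 10.6% of AGO2-free promoters and 16.3% of those with AGO2 (odds ratio 0.61, adjusted exact p = 3.18e-05), and GCGAGC in 9.71% without AGO2 and 15.1% with AGO2 (0.61, adjusted exact p = 3.93e-05). TAAGCA was in 8.25% without AGO2 and 5.10% with AGO2 (1.67, adjusted exact p = 0.0056) and AATAAA in 23.5% without AGO2 and 18.6% with AGO2 (1.35, adjusted exact p = 0.0081). The part of overall GC content in these differences was not tested.

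Several housekeeping gene families had an AGO2-free start more often than all annotated genes (20.2%). The same lists also more often had a Pol II domain of any kind at a start (82.2 to 96.9%, against 37.1%). They were likewise higher for starts in narrow domains with AGO2 (22.9 to 33.3%, against 13.6%). The share of a list with a start in an AGO2-free domain was 57.1% for aminoacyl-tRNA synthetases (20 of 35), 53.3% for subunits of the RNA polymerases (16 of 30) and of TFIID (8 of 15), the factor that recognises core promoters, 50.0% for proteasome subunits (16 of 32), 48.6% for DNA replication factors (18 of 37), 48.0% for Mediator (12 of 25) and 41.1% for mitochondrial ribosomal proteins (30 of 73). Of all annotated genes, 62.9% had no Pol II domain at a start. Among genes with a promoter Pol II domain of any kind, 54.5% had an AGO2-free narrow one. Read against that, the aminoacyl-tRNA synthetases (64.5% of 31), RNA polymerase subunits (59.3% of 27), proteasome (51.6% of 31), replication factors (51.4% of 35) and mitochondrial ribosomal proteins (50.0% of 60) lay close to the whole. Examples in wide AGO2-free domains were TrpRS and LeuRS, which charge tRNAs with tryptophan and leucine (1448 and 1405 bp), Polr2H, a subunit shared by the polymerases (1838 bp), MED17 of Mediator (1861 bp), and RPA3 and Mcm6 of the replication machinery (1739 and 1393 bp). Prosbeta2 of the proteasome and mRpL39 of the mitochondrial ribosome shared 1 head-to-head domain of 1685 bp.

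For the next lists, too, the shares over all annotated genes are 20.2% with an AGO2-free start and 13.6% with a start in a narrow domain with AGO2, and 54.5% of all genes with a promoter Pol II domain had an AGO2-free one. Cytoplasmic ribosomal proteins had a start in an AGO2-free domain in 22 of 85 cases (25.9%, or 27.2% of the 81 with Pol II), with RpL35, RpL31, RpLP2 and RpS18 in the widest (1820 to 1907 bp), against 41 in a broad domain. Of the 44 translation initiation factors 7 (15.9%, or 22.6% of the 31 with Pol II) had an AGO2-free start and 18 (40.9%) a start in a narrow domain with AGO2. None of the 8 chaperonin subunits, which fold actin and tubulin, had an AGO2-free start, while 4 were in narrow domains with AGO2 and 4 in broad ones. Of 29 segmentation and Hox genes 3 (10.3%, or 50.0% of the 6 with Pol II) had an AGO2-free start, namely Kr, Abd-B and exd. A start in a narrow domain with AGO2 was found for 3 (10.3%), and 23 had no Pol II domain at a start. Of the 19 heat shock genes 2 (10.5%, or 20.0% of the 10 with Pol II) had an AGO2-free start, Hsp60A and Hsp70Ba, and 8 were in broad domains. Hsp70Ba is one of several near-identical copies, whose reads are hard to place.

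Except for the small nuclear RNAs, most small RNA genes had no Pol II domain at a start. Of 32 small nuclear RNA genes of the spliceosome and related particles, 15 (46.9%, or 78.9% of the 19 with Pol II) had a start in an AGO2-free domain and 4 (12.5%) in a narrow domain with AGO2, and the U2 copies snRNA:U2:34ABa, snRNA:U2:34ABb and snRNA:U2:34ABc had AGO2-free domains of 1233, 980 and 962 bp. Copies of a small nuclear RNA are near identical, and reads that fit several places were removed, so single copies are uncertain. AGO2-free domains covered 21 of 257 small nucleolar RNA genes (8.17%), 9 of 260 microRNA genes (3.46%) and 3 of 295 tRNA genes (1.02%). Among their genes with Pol II these shares were 32.3% of 65, 52.9% of 17 and 50.0% of 6, against 54.5% of all genes with Pol II. None of the 111 replication-dependent histone genes was covered, and none had a Pol II domain at a start in this list. The remaining lists were at 31.6% for oxidative phosphorylation (24 of 76), 33.3% for nucleoporins (7 of 21), 50.0% for Sm and LSm proteins (5 of 10), 27.6% for the vacuolar ATPase (8 of 29) and 35.0% for autophagy (7 of 20). Among their genes with Pol II these shares were 45.3%, 36.8%, 50.0%, 53.3% and 50.0% in the same order.

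**Figure D5:**
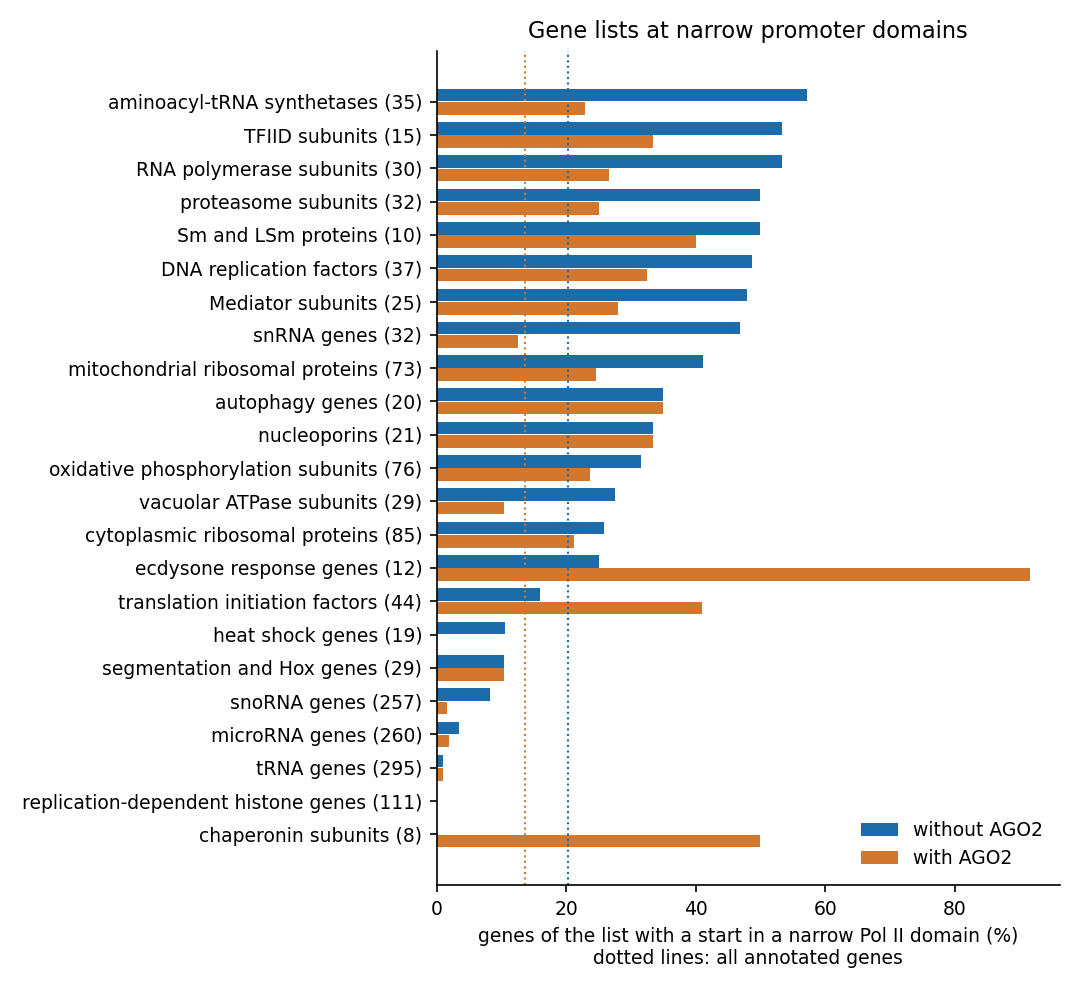
Share of the genes of each list (%, list size in brackets) with a start in a narrow promoter Pol II domain without AGO2 (blue, upper bar) or with AGO2 (orange, lower bar); a gene with several starts can count in both. Dotted lines show all annotated genes, at 20.2% without AGO2 and 13.6% with AGO2.

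The distance to AGO2 belongs to the values that chose these domains and is given as a description. The median distance to the nearest mock AGO2 peak was 7770 bp (quartiles 2757 and 21044), with 95 domains (3.31%) within 500 bp, 231 (8.04%) within 1000 bp, 1146 (39.9%) within 5000 bp and 1623 (56.5%) within 10000 bp. Of those 231, the nearest peak lay on the upstream side of the domain in 122 and on the downstream side in 109. The nearest were CG11110 at 2 bp, stck at 3 bp, tup (a LIM homeodomain factor) at 4 bp, RpLP2 (a protein of the ribosomal stalk) at 5 bp and CalpC (a calpain) at 25 bp. At the other side of this limit, the smallest overlap that kept a domain out was 1 bp, at RhoGAP15B and CG13001, and the median overlap of domains with AGO2 was 410.5 bp. The 5 farthest domains all lay near the centromere of 2R, between chr2R:1263602-1265516 at CG40191 (699230 bp from a peak) and chr2R:2118460-2118679 at asRNA:CR46487 (1265332 bp), with Yeti, a chromatin protein, l(2)41Ab and BckdhB, an enzyme of branched-chain amino acid breakdown, between them.

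In LaminB knockdown cells, 34 AGO2-free domains overlapped one of the 761 AGO2 peaks called there (1.18%, Wilson 95% interval 0.848 to 1.65%), against 267 of the domains with AGO2 (14.3%, 12.8 to 15.99%) and 6.79% of all Pol II domains. The rule used the mock AGO2 list and not this one, but a site bound in both conditions could not be AGO2-free, so the gap is partly set by the rule. None of the 34 peaks overlapped a mock peak, and 29 lay over a start inside the domain. Their −log10 p ran from 20.0 to 40.7 with a median of 24.6, against a median of 25.9 for all knockdown peaks, and their median fold enrichment over input was 3.74, against 3.53 for all knockdown peaks. The strongest was at lncRNA:CR45973 (−log10 p 40.7, fold 4.07, chr3L:20403891-20404356), followed by CG7458 (33.4, 4.62, chr3L:21954932-21955417), Pax, the focal adhesion protein paxillin (31.4, 3.91, chr2L:19414086-19414506), Fur1 and Vps33B, a furin protease and a vacuolar sorting protein (30.2, 3.04, chr3R:25472562-25473195), and Tlk, a kinase (27.8, 3.67, chrX:3775868-3776128). The 2 lists were cut by rank and have very different lengths, so that a peak in 1 list only does not show a change in AGO2 between the conditions.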

How the data were processed

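Per the labels and the methods of the study, reads were trimmed by the authors (cutadapt 1.10). They aligned them to dm6 (Bowtie2 2.2.8), kept confidently placed reads (SAMtools 1.3.1), removed duplicates (Picard 2.5.0) and called peaks on pooled libraries against input (MACS2 2.1.1.20160309). The deposited AGO2 lists were cut at a rank set by the irreproducible discovery rate and hold a −log10 p and a fold enrichment, a ratio to the local background, for each peak. The deposited Pol II list holds positions of broad calls found again in at least 1 library and merged (bedtools 2.25.0). Reads in near-identical copies were lost, which lowers such genes in every list.

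Starts came from the Ensembl 115 annotation (6.54), without transposon insertions, and sequence from the RefSeq Release 6 genome. An overlap was 1 bp or more. The 13 properties were compared by two-sided Fisher's exact tests with Benjamini-Hochberg adjustment, and the six-base sequences likewise over 2080. Domains are neighbours and not independent replicates, so p-values and Wilson intervals describe the number of domains only. Named genes were the 5 extreme domains by width, genes covered, distance to AGO2 and knockdown −log10 p, and the genes of each list in the widest domains. Members, lists and properties were chosen with earlier results of these data known. The procedures were tested on simulated data. Tests used scipy 1.17.1 and numpy 2.4.6 under Python 3.11.15, and plots matplotlib 3.10.9.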

Additional observations from a re-analysis of the deposited data

How the results depend on the processing

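In 125 recomputed tests, the long-gene difference passed in each of the 11 alternatives run for it and the X chromosome difference in each of 8. The downstream difference, measured from domain edges that the rule also used, passed in 8 of 9. Width limits of 1500 and 3000 bp were run for the number of domains only (2732 and 2948). Values below are odds ratios, domains without AGO2 over domains with AGO2. With domains under 700 bp only (1717 members), the downstream share was 0.88, the E-box 0.99, the DPE 1.04 and divergent starts 1.04, all on the other side of 1, and Motif 1 passed at 0.62. With domains of 700 bp and over (1156 members), the initiator (0.62) and divergent starts (1.36) passed in the opposite direction, the E-box (1.35), GAGA (0.78) and DPE (0.49) passed, and the DRE (1.26), Motif 1 (1.05) and TCT (0.97) changed side without passing. With an AGO2 overlap of at least 50%, GAGA (0.82) and DPE (0.71) passed, and the DRE (1.06), initiator (0.89) and divergent starts (1.15) changed side. With the stronger 50% of AGO2 peaks, GAGA (0.71) passed and the initiator passed on the other side (0.79), and the DRE (1.23), Motif 1 (1.17), divergent starts (1.09) and noncoding starts (0.83) changed side. With both AGO2 lists together the DRE was 1.01 and the initiator 0.97. The window from 250 bp upstream brought Motif 1 (0.79) and GAGA (0.81) past the threshold, and protein-coding starts did so for divergent starts (0.85) and turned TCT to 0.92. The start of the longest gene gave 0.99 for the initiator and 0.95 for TCT, and a wider position window 0.96 for the initiator. The causes of these changes were not tested. The adjusted p ranged from 1.58e-10 to 0.027 for long genes and from 0.00024 to 0.033 for the X chromosome.

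For the six-base sequences, with alternatives added after seeing the data, 219 passed in the window from 250 bp upstream, 17 under 700 bp and 66 at 700 bp and over, against 57. No paired analysis was possible because the libraries of each group were pooled into 1 list, which also prevented leaving out single libraries. Depth is unknown, so a weak AGO2 signal below the list's rank limit counts here as no AGO2. With an AGO2 peak within 500 bp counted, 2778 domains were AGO2-free, and with the stronger 50% of peaks 3678.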
